A study of Mus musculus with 2 samples.

Results

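A 75 Mb stretch of mouse chromosome 3 was examined, in which DNase-seq of RAW264 cells given RANKL returned far more peaks than DNase-seq of untreated cells. The members are every peak of both lists on chromosome 3 that starts from 55 Mb to below 130 Mb (mm9). They number 1380 of 29939 peaks, made up of 471 of 13492 in the list without RANKL and 909 of 16447 in the list with RANKL. The stretch was chosen by its peak numbers in these same lists, so its ratio of RANKL peaks, and every comparison between the lists inside it, is a description and not a finding that can be tested here. Widths and score ranks in the list without RANKL alone were not used in the choice directly, though widths may be tied to the peak numbers that were.

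RAW264 is a mouse macrophage-like line whose cells can become osteoclasts, the cells that resorb bone. The study has 2 libraries, 1 per condition: untreated cells, and cells kept for 24 hours with 234 ng/ml of GST-RANKL. Both come from the same line at the same range of passages, and the labels name no replicate cultures. Replicate error is therefore unknown throughout, and a difference is one between these 2 libraries. Intervals are 95% and cover counting error only, as if neighbouring peaks were independent. Medians carry a binomial interval on order statistics, shares a Wilson interval and ratios of peak numbers an exact conditional Poisson interval.

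Chromatin that is free of tightly packed nucleosomes, mostly at promoters, enhancers and insulators, is cut by DNase I more readily than its surroundings, and such DNase-hypersensitive sites appear as peaks. RANKL binds its receptor RANK on macrophage precursors and, through NF-kappaB, AP-1 and NFATc1, turns on the osteoclast gene programme. Chromosome 3 of the mouse carries several genes of that programme and of macrophages. A list of 17 such genes and a list of 10 genes of other lineages were drawn up from genes of this chromosome, so their number says nothing about it. In the order of the RefSeq gene table of GRCm38, the first list includes Tlr2 (a receptor for bacterial lipoproteins), S100a8 and S100a9 (calcium-binding proteins of myeloid cells), the neighbouring cathepsin genes Ctsk and Ctss (cathepsin K is the main collagen-degrading protease of osteoclasts) and Csf1 (the macrophage growth factor M-CSF). The second includes the epidermal genes Lor, Flg and Ivl and the amylase genes Amy1 and Amy2a5. That table is of another build than the peaks, so no peak was assigned to a gene and sites are named by their mm9 position.

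The surplus of RANKL peaks ran through nearly the whole stretch. Of its 75 bins of 1 Mb, 65 held peaks, and 61 of these held more RANKL peaks than peaks without RANKL, 2 held equal numbers and 2 held fewer. Elsewhere on chromosome 3, 59 bins held peaks, and 38 had more RANKL peaks, 9 equal numbers and 12 fewer. Of the 65 bins with peaks, 9 held RANKL peaks only, 31 in all. Elsewhere on chromosome 3, 9 of the 59 bins with peaks held RANKL peaks only, 13 in all. Such bins were thus not particular to the stretch.

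**Figure D1:**
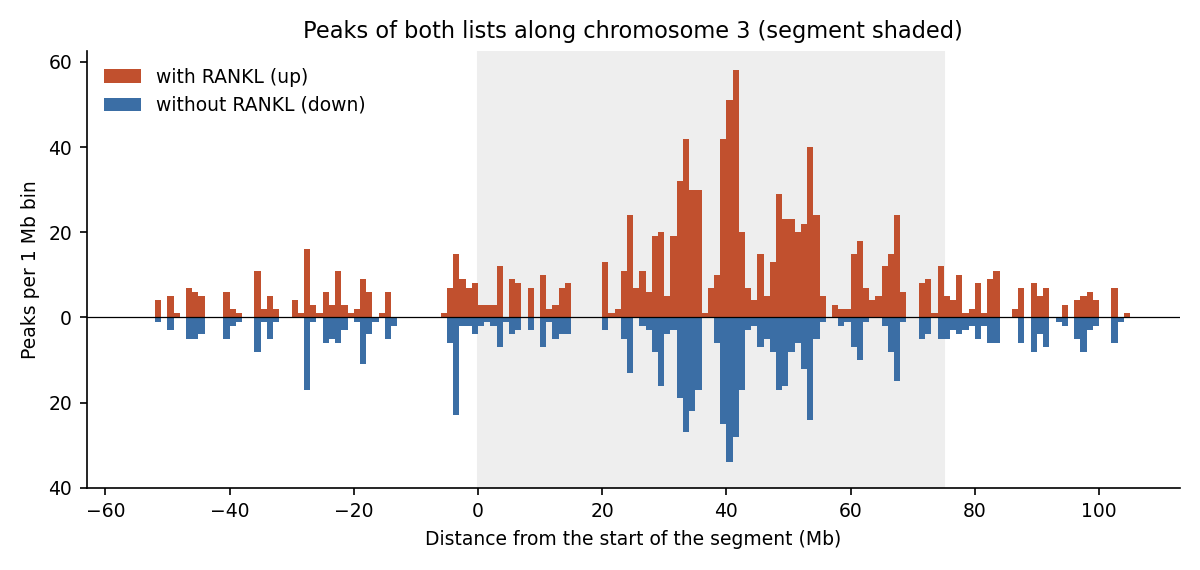
Peaks per 1 Mb bin along chromosome 3, with RANKL plotted upward and without RANKL downward, against distance from the start of the stretch (shaded, 0 to 75 Mb). Inside the shading the upward bars exceed the downward bars in 61 of 65 bins with peaks, with the fullest bin at 58 and 28 peaks.

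The edges of the surplus lay slightly outside the chosen limits. Over all starts and ends at 1 Mb steps, 52 to 133 Mb separated the 2 parts of the chromosome most strongly by likelihood ratio, with 491 peaks without RANKL and 952 with RANKL inside (ratio 1.94, interval 1.74 to 2.17) and 209 and 244 outside (ratio 1.17, interval 0.967 to 1.41). On the left side the counts changed within a few megabases, but on few peaks. The bin from 51 to 52 Mb held 23 peaks without RANKL and 15 with RANKL (ratio 0.652, interval 0.316 to 1.30). The 3 bins from 52 to 55 Mb together held 8 and 24 (ratio 3.00, interval 1.30 to 7.72). From 0 to 50 Mb the ratio was 1.27 (interval 0.975 to 1.66). This interval overlaps that from 55 to 60 Mb (ratio 1.62, interval 0.772 to 3.51). The right side was gradual. From 125 to 130 Mb there were 14 and 30 peaks, from 130 to 133 Mb 12 and 19 (ratio 1.58, interval 0.730 to 3.58), and from 133 to 140 Mb 24 and 32 (ratio 1.33, interval 0.761 to 2.37). The next best choices of limits all began at 52 Mb and ended between 130 and 142 Mb, so the right edge is known only to within about that span. With the upper 50% of each list by score the limits were 55 and 122 Mb, and with peaks closer than 1 kb merged they were 52 and 142 Mb.

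The peaks next to the chosen limits are given by their scores. At the start, the 3 peaks without RANKL just inside scored 90, 69.3 and 279, and the 3 just outside scored 211, 201 and 122. The first 3 RANKL peaks inside scored 53.8, 135 and 52.8, and the last 3 outside scored 176, 111 and 66.5. At the end, the last 3 inside scored 160, 51.6 and 239 without RANKL and 51.8, 52.2 and 51.7 with RANKL, against 70.0, 72.8 and 128 and 74.15, 61.9 and 93.3 for the first 3 outside. Scores are the authors' own value per peak, start at 50.0 in both lists, and rank peaks within a list only.

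The size of the surplus was then followed along the stretch. From 55 to 68 Mb the ratio was 1.67 (36 and 60 peaks, interval 1.08 to 2.59), from 68 to 121 Mb 1.95 (397 and 774 peaks, interval 1.73 to 2.21) and from 121 to 130 Mb 1.97 (38 and 75 peaks, interval 1.32 to 3.00). These 3 intervals overlap. The 15 Mb from 90 to 105 Mb, where peaks without RANKL were densest at 12.3 per Mb, had a ratio of 1.70 (185 and 315 peaks, interval 1.42 to 2.05). The 15 Mb from 105 to 120 Mb, with 5.13 per Mb, had 2.47 (77 and 190 peaks, interval 1.88 to 3.26). The ratio was 1.62 from 55 to 60 Mb (13 and 21 peaks, 2.6 peaks without RANKL per Mb). It was 1.74 from 60 to 75 Mb (31 and 54 peaks, 2.07 per Mb) and 1.94 from 75 to 90 Mb (125 and 242 peaks, 8.33 per Mb). The ratio followed no order of density over these 5 parts.

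The 5 bins with the most RANKL peaks were also the 5 with the most peaks without RANKL. The bin from 96 to 97 Mb held 28 peaks without and 58 with RANKL, and the neighbouring bin from 95 to 96 Mb held 34 and 51. The bin from 88 to 89 Mb held 27 and 42, the bin from 94 to 95 Mb 25 and 42, and the bin from 108 to 109 Mb 24 and 40. Together these 5 bins contained 29.3% of the stretch's peaks without RANKL and 25.6% of its RANKL peaks. Leaving them out gave a ratio of 2.03. Peaks without RANKL in the 5 bins had median widths of 2069 to 2791.5 bp. The genes of these bins were not analysed here, for want of an mm9 annotation.

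Against the other autosomes, the surplus was found among weak and strong peaks. When only peaks at or above a given score were kept in both lists, the ratio in the stretch was 1.93 at 50, 1.46 at 60, 1.24 at 75, 1.15 at 100, 1.33 at 150, 1.93 at 200 and 2.41 at 300. On the other 18 autosomes the same thresholds gave 1.18, 0.937, 0.820, 0.748, 0.796, 0.999 and 1.71. The ratio in the stretch was thus 1.63, 1.55, 1.51, 1.54, 1.67, 1.93 and 1.41 times that of the other autosomes, a similar factor at each threshold. The rest of chromosome 3 lay at 0.921 to 1.46 times the other autosomes. Its ratio was 0.736 at 100 (interval 0.546 to 0.990), 1.16 at 150 (0.758 to 1.79), 1.22 at 200 (0.676 to 2.21) and 1.57 at 300 (0.556 to 4.78). These intervals overlap those of the stretch (0.961 to 1.37, 1.04 to 1.70, 1.38 to 2.72 and 1.34 to 4.53). At 50, 60 and 75 the intervals of these regions did not overlap. At the threshold of 300 the stretch held 17 and 41 peaks and its interval (1.34 to 4.53) contained the value of the other autosomes, whereas at the 6 lower thresholds it did not. The stretch was chosen on these peak numbers, so nothing is read from whether its intervals overlap or contain other values. The scores of the lists may not share a scale, so the ratio at a single threshold has no meaning of its own and only regions at the same threshold are set side by side.

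**Figure D2:**
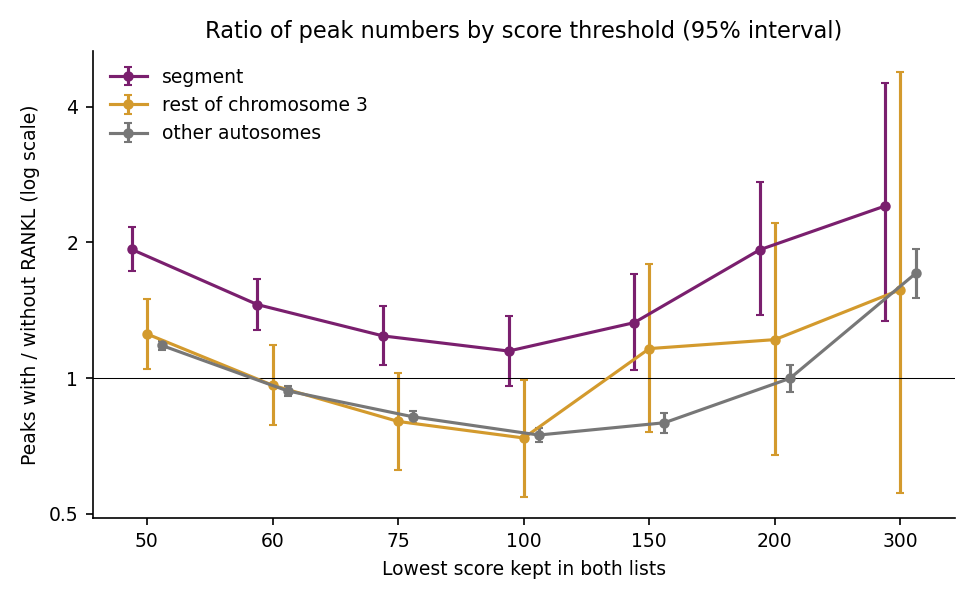
Ratio of RANKL peaks to peaks without RANKL (log scale) against the lowest score kept in both lists, for the stretch, the rest of chromosome 3 and the other autosomes, with 95% intervals. The stretch lies above the other autosomes at all 7 thresholds, at 1.93 against 1.18 for all peaks and at 1.15 against 0.748 from a score of 100.

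The larger part of the surplus consisted of RANKL peaks that met no peak of the untreated cells. For every 100 peaks without RANKL, the stretch held 89.2 RANKL peaks that overlapped none of them (by 1 bp) and 103.8 that overlapped 1, against 38.9 and 79.3 on the other autosomes and 53.3 and 72.1 on the rest of chromosome 3. In all, 420 of the 909 RANKL peaks were unshared (46.2%), where the whole RANKL list had 34.3%. The other 489 were shared (53.8%, interval 50.5 to 57.0%), where the whole list had 65.7%. On the rest of chromosome 3, 42.5% of RANKL peaks were unshared and 57.5% shared (interval 51.7 to 63.1%), and this interval overlaps that of the stretch. Of the 471 peaks without RANKL, 351 were shared (74.5%, interval 70.4 to 78.2%), where the whole list had 60.7%. The other 120 were unshared (25.5%), where the whole list had 39.3%. On the rest of chromosome 3, 52.4% of peaks without RANKL were shared (interval 45.9 to 58.8%) and 47.6% unshared. The stretch was chosen on the same contrast, so nothing is read from these shares.

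Sharing of the peaks without RANKL was higher at each level of score. In the lowest quartile of scores, 58 of 123 were shared (47.2%, interval 38.6 to 55.9%), against 28.3% on the other autosomes. In the second quartile 77 of 116 were shared (66.4%, against 47.1%), in the third 99 of 114 (86.8%, against 71.6%) and in the highest 117 of 118 (99.2%, against 94.1%). For RANKL peaks the order against the other autosomes was the opposite. In the stretch 23.5% of the lowest quartile and 36.3% of the second were shared, against 38.0% and 57.1% on the other autosomes. In the third quartile the values were 73.9% and 79.1%, and in the highest 91.4% and 94.4%. The rest of chromosome 3 had 21.8% in the lowest quartile (interval 14.1 to 32.2%) and 46.3% in the second (interval 36.0 to 57.1%). It had 77.3% in the third (interval 65.8 to 85.7%) and 96.7% in the highest (interval 88.8 to 99.1%). From the lowest quartile to the highest, the intervals of the stretch were 18.7 to 29.1%, 30.6 to 42.4%, 67.1 to 79.7% and 87.0 to 94.5%. In each quartile they overlap those of the rest of chromosome 3. Low sharing of RANKL peaks was thus not particular to the stretch in any quartile.

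Unshared RANKL peaks of the stretch were weak and narrow, as they were elsewhere. Their median score was 57.8, against 57.75 on the other autosomes, and their median width was 170 bp, against 155 bp. The median gap to the other list was 37.3 kb, against 32.4 kb on the other autosomes and 72.3 kb on the rest of chromosome 3, and 335 of the 420 (79.8%) were more than 10 kb away. On the other autosomes 76.8% of unshared RANKL peaks were that far away, and on the rest of chromosome 3 83.6%. Closer than 1 kb were 9 of the 420, against 128 of 4923 and 3 of 122 in those regions.

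The strongest unshared RANKL peak, chr3:89197354-89198569, scored 229, was 1216 bp wide and lay 16.2 kb from the other list. The next, chr3:96888565-96888673, scored 208 over 109 bp, with a gap of 7.265 kb. The remaining 3 of the top 5 were narrow and remote: chr3:92420179-92420240 (score 194.5, 62 bp) lay 790 kb from any peak without RANKL, chr3:63320341-63320484 (score 172, 144 bp) 412 kb, and chr3:61963103-61963154 (score 161, 52 bp) 742 kb. Whether these 3 lie in repeated sequence was not tested. Among peaks found without RANKL alone, the strongest was chr3:89239863-89242190 (score 170, 2328 bp), 5.11 kb from a RANKL peak. The others of the top 5 scored 117 to 131, and 2 of them, chr3:97097781-97102732 and chr3:97794887-97799842, were 4952 and 4956 bp wide.

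Sites open in both libraries ranked higher with RANKL. At the 234 sites of the stretch with 1 peak in each list, the percentile of the RANKL peak in its list minus that of the broad peak in its own had a median of 15.8 points (interval 11.3 to 20.2), and 190 sites (81.2%, interval 75.7 to 85.7%) ranked higher with RANKL. The 84 such sites on the rest of chromosome 3 had a median of 9.45 points (interval 1.66 to 17.1) and 64.3% ranked higher (interval 53.6 to 73.7%). On the other autosomes, 5565 sites had a median of 3.15 points (interval 2.47 to 3.83) and 57.8% ranked higher, and single chromosomes among the 18 ranged from 1.58 to 5.07 points and from 52.6 to 62.9%. The intervals of the median for the stretch and the rest of chromosome 3 overlap. Low ranks have more room to rise, so sites were also compared by their quartile without RANKL. In the third quartile the stretch had a median of 22.3 points (65 sites, interval 15.8 to 26.3) against 0.966 on the other autosomes, and in the highest quartile 2.77 points (72 sites, interval 0.452 to 4.68) against -0.929. On the rest of chromosome 3 the third quartile had 12.1 points (29 sites, interval -19.1 to 19.5) and the highest 0.765 points (18 sites, interval -11.5 to 4.33), and both intervals overlap those of the stretch. In the lowest 2 quartiles the medians were 40.5 (47 sites, interval 30.9 to 52.3) and 28.0 points (50 sites, interval 13.1 to 37.3), against 31.2 and 15.7 on the other autosomes, which lay inside these intervals. The rest of chromosome 3 had 42.0 points in the lowest quartile, where 16 of 16 sites ranked higher with RANKL, and 10.1 points in the second (21 sites, interval -12.1 to 27.3). By its medians the stretch is therefore not told apart from the rest of its chromosome, which had few sites per quartile. The intervals of the share of sites ranking higher with RANKL (75.7 to 85.7% and 53.6 to 73.7%) do not overlap. The stretch was chosen on the same contrast, so nothing is read from that share.

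**Figure D3:**
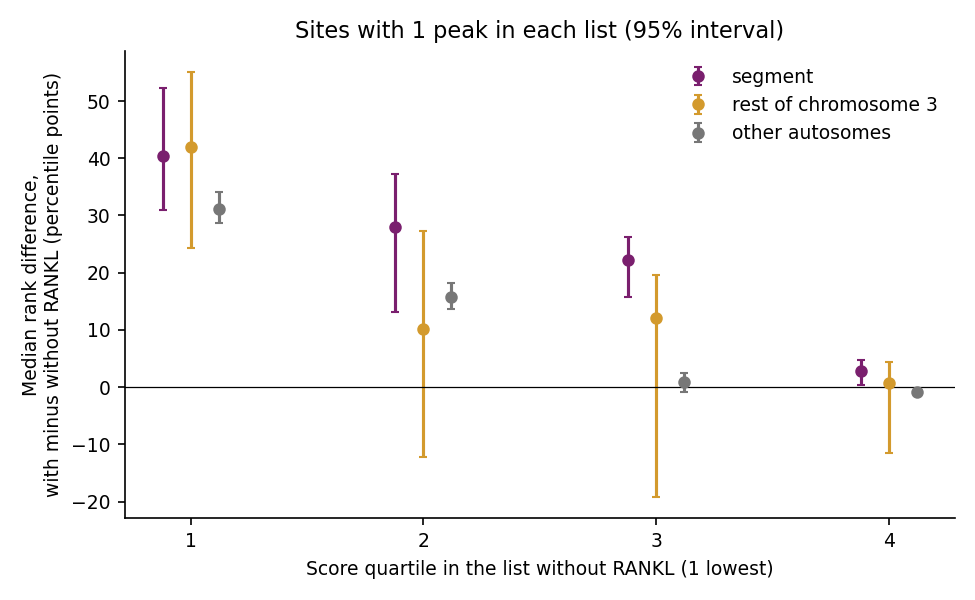
Median difference in percentile rank, with minus without RANKL, at sites with 1 peak in each list, by score quartile in the list without RANKL, with 95% intervals. The stretch lies above the other autosomes in every quartile, by the most in the third (22.3 against 0.966 points), while the intervals of the rest of chromosome 3 overlap those of the stretch in all 4.

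Along the stretch this rank difference was positive in every part: 10.3 points from 55 to 75 Mb (17 sites), 17.9 from 75 to 85 Mb (18 sites), 17.0 from 85 to 95 Mb (72 sites), 20.0 from 95 to 105 Mb (63 sites), 10.1 from 105 to 115 Mb (38 sites) and 23.0 from 115 to 130 Mb (26 sites). The intervals of 3 of these parts, 55 to 75 Mb (-2.62 to 20.2 points), 105 to 115 Mb (0.187 to 23.6) and 115 to 130 Mb (0.596 to 30.9), contained the 3.15 points of the other autosomes. Beyond the stretch, the 33 sites from 130 to 160 Mb had a median of 19.5 points (interval -3.51 to 25.1), and the 51 sites before 55 Mb had 8.45 points (interval 0.969 to 14.5). Sites also moved far in both directions. The largest rise, of 83.6 points, was at chr3:115391545-115394456, which scored 54.0 without RANKL and whose RANKL peak (chr3:115392442-115392964) scored 205. The next were chr3:103010190-103012304 (75.1 points) and chr3:95027085-95029173 (74.3 points). The largest fall, of -69.2 points, was at chr3:90846121-90850266, a peak 4146 bp wide that scored 171 without RANKL, and its RANKL peak of 303 bp scored 52.6.

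The most accessible sites of the stretch were strong in both libraries. All 10 peaks with the highest scores without RANKL, and all 10 with the highest with RANKL, overlapped a peak of the other list. On the other autosomes 94.1% and 94.4% of peaks in the highest score quartile did so. Such overlap was therefore usual for strong peaks and not particular to the stretch. The highest-scoring site was the same in both: chr3:106523651-106526024 scored 467 without RANKL (percentile 99.4), and chr3:106524422-106525592, inside it, scored 852 with RANKL (percentile 99.4). Likewise chr3:107134647-107138056 (score 427), chr3:94818030-94821144 (423) and chr3:87980422-87983024 (402) were 3rd to 5th without RANKL, and the RANKL peaks inside them scored 669, 641 and 742. Very high scores were about as frequent as in the whole lists: 46 of the 471 peaks without RANKL (9.77%, interval 7.40 to 12.8%) and 96 of the 909 with RANKL (10.6%, interval 8.73 to 12.7%) were in the highest 10% of their lists. The median percentile was 49.4 without RANKL (interval 43.7 to 53.3) and 44.1 with RANKL (interval 41.6 to 47.8), against 50.2 and 50.0 on the other autosomes. The rest of chromosome 3 had 47.7 (interval 40.1 to 52.9) and 45.4 (interval 40.3 to 50.0). Both intervals overlap those of the stretch.

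Peaks of untreated cells were wider in the stretch than elsewhere, in a measure that its choice did not use directly. Closely set sites called as 1 wide peak would also lower the number of peaks without RANKL, so widths may not be independent of the choice. The median width without RANKL was 2161 bp in the stretch (interval 2089 to 2258, quartiles 1751.5 and 2967 bp), 1697 bp on the rest of chromosome 3 (interval 1650 to 1742) and 1732 bp on the other autosomes (interval 1722 to 1742). The medians of the 18 other autosomes ranged from 1680.5 to 1802 bp, and chromosome 3 as a whole had 1993.5 bp. With 1 library no test across samples was possible, and peaks of 1 library are not replicates. The copy number of the stretch in either culture, which peak numbers, ranks and widths could all reflect, was not tested. RANKL peaks were wider there too, at 277 bp (interval 262 to 291) against 200 bp on the rest of chromosome 3 and 233 bp on the other autosomes, but the chromosome medians of the RANKL list (210 to 268 bp on the other 18) reached almost that far.

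The greater width was found at similar scores. Within each quartile of score, the median width without RANKL in the stretch was 1.26 to 1.33 times that of the other autosomes: 1744 against 1352 bp in the lowest, 2072.5 against 1599 bp in the second, 2435.5 against 1836 bp in the third and 2569.5 against 2047 bp in the highest. Each of these 4 intervals lay above the value of the other autosomes. With RANKL, the lowest quartile was 1.01 times as wide (151 against 149 bp) and the upper 3 were 1.24, 1.21 and 1.30 times as wide. The rest of chromosome 3 had 0.985 to 1.03 times the widths of the other autosomes without RANKL and 0.872 to 0.964 times with RANKL.

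**Figure D4:**
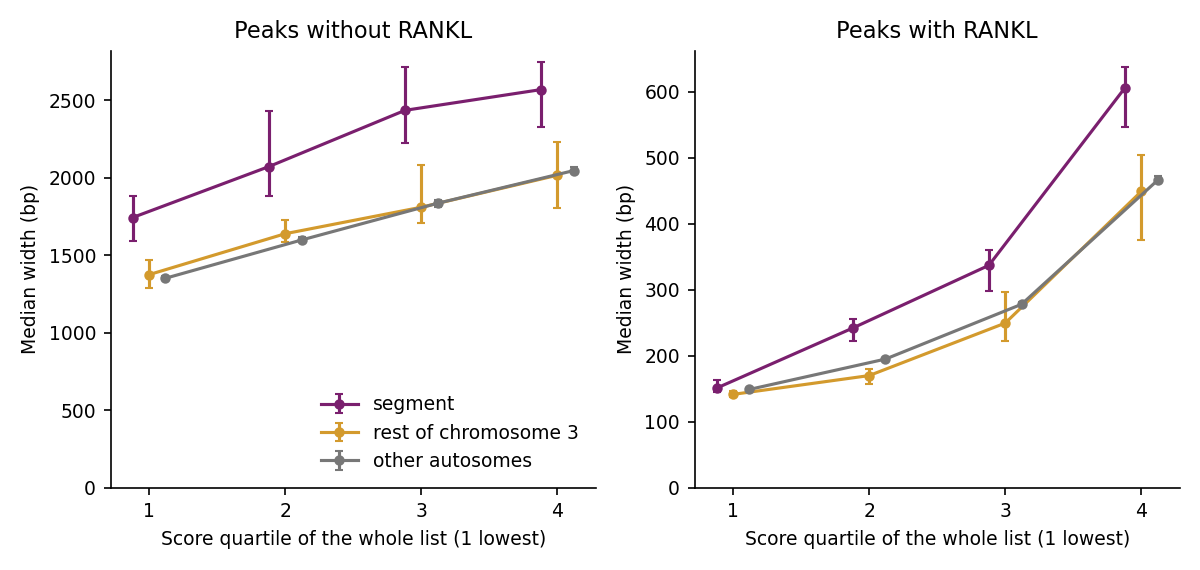
Median peak width by score quartile of the whole list, without RANKL (left) and with RANKL (right), for the stretch, the rest of chromosome 3 and the other autosomes, with 95% intervals. Without RANKL the stretch lies 1.26 to 1.33 times above the other autosomes in all 4 quartiles, while with RANKL it does so in the upper 3 only.

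Very wide peaks were common. Of the 471 peaks without RANKL, 85 (18.0%, interval 14.8 to 21.8%) were among the widest 5% of their list (over 3168 bp), against 5.24% on the rest of chromosome 3 and 4.52% on the other autosomes, so that the stretch held 12.6% of all 675 such peaks. The 3 widest, chr3:96300742-96307907 (7166 bp), chr3:88312317-88319202 (6886 bp) and chr3:95114063-95120695 (6633 bp), scored only 85.5, 76.45 and 61.9, at percentiles from 16.0 to 39 of the list. RANKL peaks of the widest 5% (over 658 bp) made up 11.4% of those in the stretch (104 peaks, interval 9.53 to 13.7%) and 4.62% on the other autosomes.

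The wide peaks filled a narrower span than the surplus of RANKL peaks. Among all spans of 5 Mb or more, the one from 68 to 121 Mb set the widths without RANKL apart most strongly by rank, with a median of 2284 bp inside (397 peaks) and 1706 bp outside on the same chromosome (303 peaks). No peak of either list lay between 69.9 and 75.4 Mb, close to the left limit. From 55 to 68 Mb the median was 1703 bp (interval 1386 to 1847) and from 121 to 130 Mb it was 1887 bp (interval 1562 to 2047), both with intervals that contain the value of the other autosomes. In these flanks together the ratio of RANKL peaks was 1.82. The span was picked for its widths and the stretch for its peak numbers, so nothing is read from this ratio. Whether the surplus and the widths are linked was not tested. For RANKL peaks the span was 87 to 109 Mb, with medians of 348.5 bp inside and 202 bp outside.

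In windows of 5 Mb with at least 10 peaks, the 3 with the greatest median width without RANKL of all 382 on the autosomes belonged to the stretch. They were 95 to 100 Mb (2584.5 bp, 84 peaks), 75 to 80 Mb (2513 bp, 21 peaks) and 85 to 90 Mb (2463 bp, 75 peaks). Of the 25 widest windows, 9 lay in the stretch, which supplied 13 of the 382. Windows with many peaks were compared separately. The 5 windows of the stretch with at least 45 peaks had medians of 2115 to 2584.5 bp, and 89 such windows on the other autosomes had 1584 to 2152 bp, with a middle value of 1758 bp. These ranges overlap at their ends: the widest of the 89, on chromosome 17 from 55 to 60 Mb (2152 bp, 47 peaks), was above the narrowest of the 5, from 100 to 105 Mb (2115 bp, 53 peaks). In the RANKL list 3 of the 25 widest windows were in the stretch, the highest being 95 to 100 Mb in 5th place (369.5 bp).

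**Figure D5:**
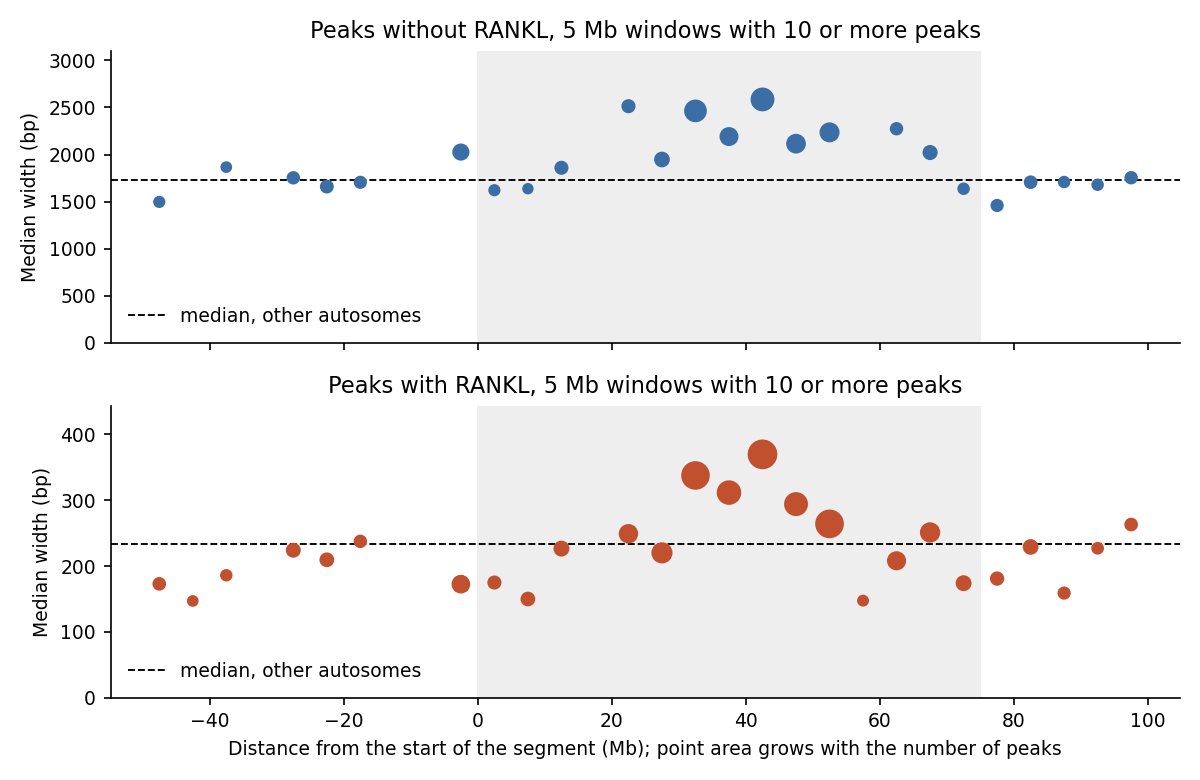
Median width of peaks in 5 Mb windows with 10 or more peaks along chromosome 3, without RANKL (top) and with RANKL (bottom), against distance from the start of the stretch (shaded); point area grows with the number of peaks and the dashed line is the median of the other autosomes. Without RANKL, windows from 20 to 70 Mb after the start lie between 1947 and 2584.5 bp, above the line at 1732 bp.

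Spacing was measured because closely set sites can be called as 1 wide peak. The centres of neighbouring peaks without RANKL were a median of 39.3 kb apart in the stretch (interval 35.1 to 47.3), 64.3 kb on the rest of chromosome 3 and 42.5 kb on the other autosomes, and 2 of the 471 had a neighbour closer than 1 kb (0.425%, against 1.06%). RANKL peaks were spaced by a median of 26.0 kb (interval 21.9 to 29.4), against 72.3 and 38.7 kb. A neighbour closer than 1 kb was found for 264 of the 909 RANKL peaks (29.0%, interval 26.2 to 32.1%), against 30.3% on the rest of chromosome 3 and 31.5% on the other autosomes, so close pairs were about as frequent in the stretch as outside it.

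More of the broad peaks held several RANKL peaks. In the stretch 234 peaks without RANKL overlapped 1 RANKL peak, 97 overlapped 2 and 20 overlapped 3 or more, so that 24.8% held several (interval 21.2 to 28.9%), against 15.7% on the rest of chromosome 3 and 16.4% on the other autosomes. A wider peak has more room for them. These shares are of all broad peaks, also those that overlapped no RANKL peak. The stretch was chosen for its RANKL peaks, so nothing is read from these shares. Shared broad peaks held a mean of 1.39 RANKL peaks, against 1.375 and 1.31. The most in 1 peak was 4, in chr3:96064893-96069354 (score 158.5, 4462 bp), where RANKL peaks of 290 to 469 bp lay in a row between 96066258 and 96068075 with scores of 69.3 to 174. The next broad peak, chr3:96071416-96074442 (score 276), held 3.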

How the data were processed

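Each library was deposited as 1 list of peaks with a position and the authors' score per peak. The tools named are Bowtie2 2.0.0 and MACS2, and the build mm9, per the submitters' processing notes. Not given in the sources used here are the calling threshold, any control library, what the score is and the read depth. Fragments of 100 to 500 bp had been selected, per the labels' protocols. Positions are printed 1-based.

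Peaks sharing at least 1 bp were called shared. Percentile ranks were taken within each whole list. The comparison regions were the rest of chromosome 3 and autosomes 1 to 19 without it. Computation used scipy 1.17.1, pandas 2.3.3 and numpy 2.4.6 under Python 3.11.15, and the overlap and edge searches were tested on simulated data. With 1 library per condition no test was made. The members, lists and comparisons were chosen with earlier results of these data known; the minimum of 45 peaks for dense windows and the spans of uneven width were set after seeing values. Named sites were the 10 highest-scoring peaks and 5 highest-scoring unshared peaks per list, the largest rank changes, 3 peaks either side of each limit and the broad peak with most RANKL peaks; the widest peaks were added later. Planned gene and motif counts were not made, for want of an mm9 reference.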

Additional observations from a re-analysis of the deposited data

How the results depend on the processing

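Of 41 alternative values for the stretch, 22 stayed within the interval of the reported value (limits of the surplus: within 1 Mb). The ratio of RANKL peaks was 1.55 with the lists cut to the same length (other autosomes 0.969) and 1.63 with peaks closer than 1 kb merged (other autosomes 0.987); the other 7 settings gave 1.75 to 2.03. Shared peaks without RANKL were 63.3% with 500 bp windows around the centres and 85.8% with the upper 50% of each list, and shared RANKL peaks 39.4%, 59.9% and, with lists of the same length, 60.8%. Median widths without RANKL were 2495 bp in the upper 50% (other autosomes 1955 bp), 1750 bp without 68 to 121 Mb and 1720.5 bp for unshared peaks (other autosomes 1520.5 bp). With RANKL these were 444.5 bp (other autosomes 356 bp), 207 bp and 170 bp, and 297.5 bp after merging and 464 bp at sites with 1 peak in each list (other autosomes 265 and 311 bp). Merging gave a spacing of 35.6 kb for RANKL peaks. The surplus started at 55 Mb in the upper 50% and ended at 122 Mb there and at 142 Mb after merging. Merging and smaller lists lower counts by construction; the cause of the other shifts was not tested. Leaving out 68 to 121 Mb or 95 to 100 Mb, and widths of unshared or single peaks, were added after seeing the data. No paired analysis was possible because each condition had 1 library. Read depth is unknown, and a peak missing from a list does not show closed chromatin.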

Other observations

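Peaks of either list left large parts of the stretch empty. The longest gap ran from 69915912 to 75359560 on chromosome 3 (5.44 Mb), followed by 123212444 to 126087020 (2.87 Mb) and 110942077 to 112702714 (1.76 Mb).

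Wide peaks in untreated cells were found in windows of other chromosomes as well. On chromosome 1 the window from 195 to 200 Mb had a median of 2330 bp (13 peaks) and the window from 165 to 170 Mb 2244 bp (41 peaks), and on chromosome 17 the window from 55 to 60 Mb had 2152 bp (47 peaks). The last was also second in the RANKL list, at 383 bp (53 peaks).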
